A study of Danio rerio with 53 samples.

Results

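The genes described are the amino acid and sugar transporter genes of the zebrafish count table. They were chosen by name: every row whose symbol, ignoring case, belongs to the solute carrier (SLC) families 1, 2, 3, 6, 7, 16, 36, 38 or 43. Of the 14424 rows, 75 met this rule, and each had a level in 53 libraries. The families held 5 SLC1, 12 SLC2, 3 SLC3, 14 SLC6, 12 SLC7, 13 SLC16, 2 SLC36, 9 SLC38 and 5 SLC43 genes. The rule also caught SLC7A6OS and slc2a4rg, which are named after transporters and are not transporters themselves, so 73 of the 75 encode family proteins. Many symbols in the names table are in capitals, as for human genes, and 16 of the 75 genes share a symbol with a second gene, so those are given with their Ensembl identifier. Roles below are those of the mammalian proteins.

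Solute carriers move nutrients across membranes. In mammals the SLC1, SLC7, SLC38 and SLC43 families carry mainly amino acids, SLC2 carries glucose and other sugars, and SLC16 carries lactate and related acids. SLC3A2 and SLC3A1 carry nothing alone and act as heavy chains that bring SLC7 light chains to the membrane, such as SLC7A5 (LAT1, leucine uptake) with SLC3A2 and SLC7A9 (cystine uptake in the kidney tubule) with SLC3A1. Activated and cycling mammalian lymphocytes raise glutamine, leucine and glucose uptake, and the amino acids taken up feed mTORC1 signalling. In fish the blood-forming marrow lies within the kidney, so marrow samples are taken from among kidney tubules.

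The libraries came from untreated fish of 4 double-transgenic lines in which fluorescent reporters mark lymphocytes: rag2 promoter RFP with cd79b or cd79a GFP (rag2-cd79b, rag2-cd79a), and lck promoter mCherry with cd79b or cd79a GFP (lck-cd79b, lck-cd79a). The reporters mark early lymphocytes (rag2), T cells (lck) and B cells (cd79a, cd79b), and ages were not in the labels used here. Cells were sorted from marrow (24 libraries: 6 early T-committed, 3 early B-committed, 6 B Stage I, 6 B Stage II, 3 B Stage III) and from thymus (29 libraries: 6 each of T Stages I and II, 3 each of T Stages III and IV, 11 thymic B), which gave 10 cell types in 19 groups of 1 line and 1 population. Early B-committed, B Stage I and B Stage II cells came from both rag2 lines, with 1 early B-committed library in rag2-cd79a, and B Stage III cells from rag2-cd79b alone. Early T-committed cells came from the lck lines, T Stage I from rag2-cd79a, T Stage II from both rag2 lines, and T Stages III and IV from lck-cd79a alone. Line, and any batch tied to it, therefore cannot be told apart from those cell types. Labels did not say whether libraries of a group came from separate fish, so p-values measure only the spread between libraries.

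Libraries held between 7295854 and 18778603 counts (median 11912824). Levels are given as CPM, counts scaled to the same total in every library. A gene was read as detected above 3 counts, which were worth at most 0.411 CPM. Between 12 and 61 of the 75 genes had over 3 counts in a library, with a median of 31. Zeros filled 56.2% of the entries of the 75 genes, against 45.1% over all genes, so a single library often set a group's mean. The summed T cell markers ran from 1414 to 4054 CPM in the 4 thymic T stages and from 319.5 to 1734 CPM in early T-committed cells, and reached at most 163.6 CPM in any B population. Summed B cell markers ran from 550.8 to 2295 CPM in the 5 B populations and reached at most 66.3 CPM in any T population. In sorted populations fewer expressing cells and less RNA per cell cannot be told apart.

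Most of the transporter genes differed somewhere among the 19 groups by edgeR, and few did by DESeq2. By edgeR's quasi-likelihood F test with Benjamini-Hochberg adjustment over 14423 genes, 41 of the 75 varied (54.7%), against 36.5% of all genes. Varying genes made up 3 of 3 SLC3, 9 of 13 SLC16, 9 of 14 SLC6, 3 of 5 SLC43, 7 of 12 SLC2, 4 of 9 SLC38, 2 of 5 SLC1, 1 of 2 SLC36 and 3 of 12 SLC7 genes. DESeq2's likelihood ratio test gave an adjusted p to 41 of the 75 and called 5 of them (12.2%), against 20.1% of all genes it tested. The share called was thus above that of all genes in edgeR and below it in DESeq2. The smallest adjusted p in edgeR belonged to slc6a7, a proline transporter in mammals (1.26e-12), then to SLC6A19 (ENSDARG00000056719; 1.95e-11), SLC2A12 (2.28e-11), slc2a11a (3.56e-09), SLC16A8 (3.82e-09) and SLC16A9 (ENSDARG00000013926; 6.21e-09). The next in order were slc2a11l, slc2a9l1, SLC16A3, SLC43A2 (ENSDARG00000061120), SLC3A1, SLC6A18, SLC38A4, slc36a4 and SLC6A19 (ENSDARG00000018621). Early T-committed cells had the highest mean for 15 of the 75 genes (20.0%, against 14.25% of all genes), B Stage III cells for 13 (17.33%, against 10.37%) and B Stage I cells for 10 (13.33%, against 7.114%).

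**Figure D1:**
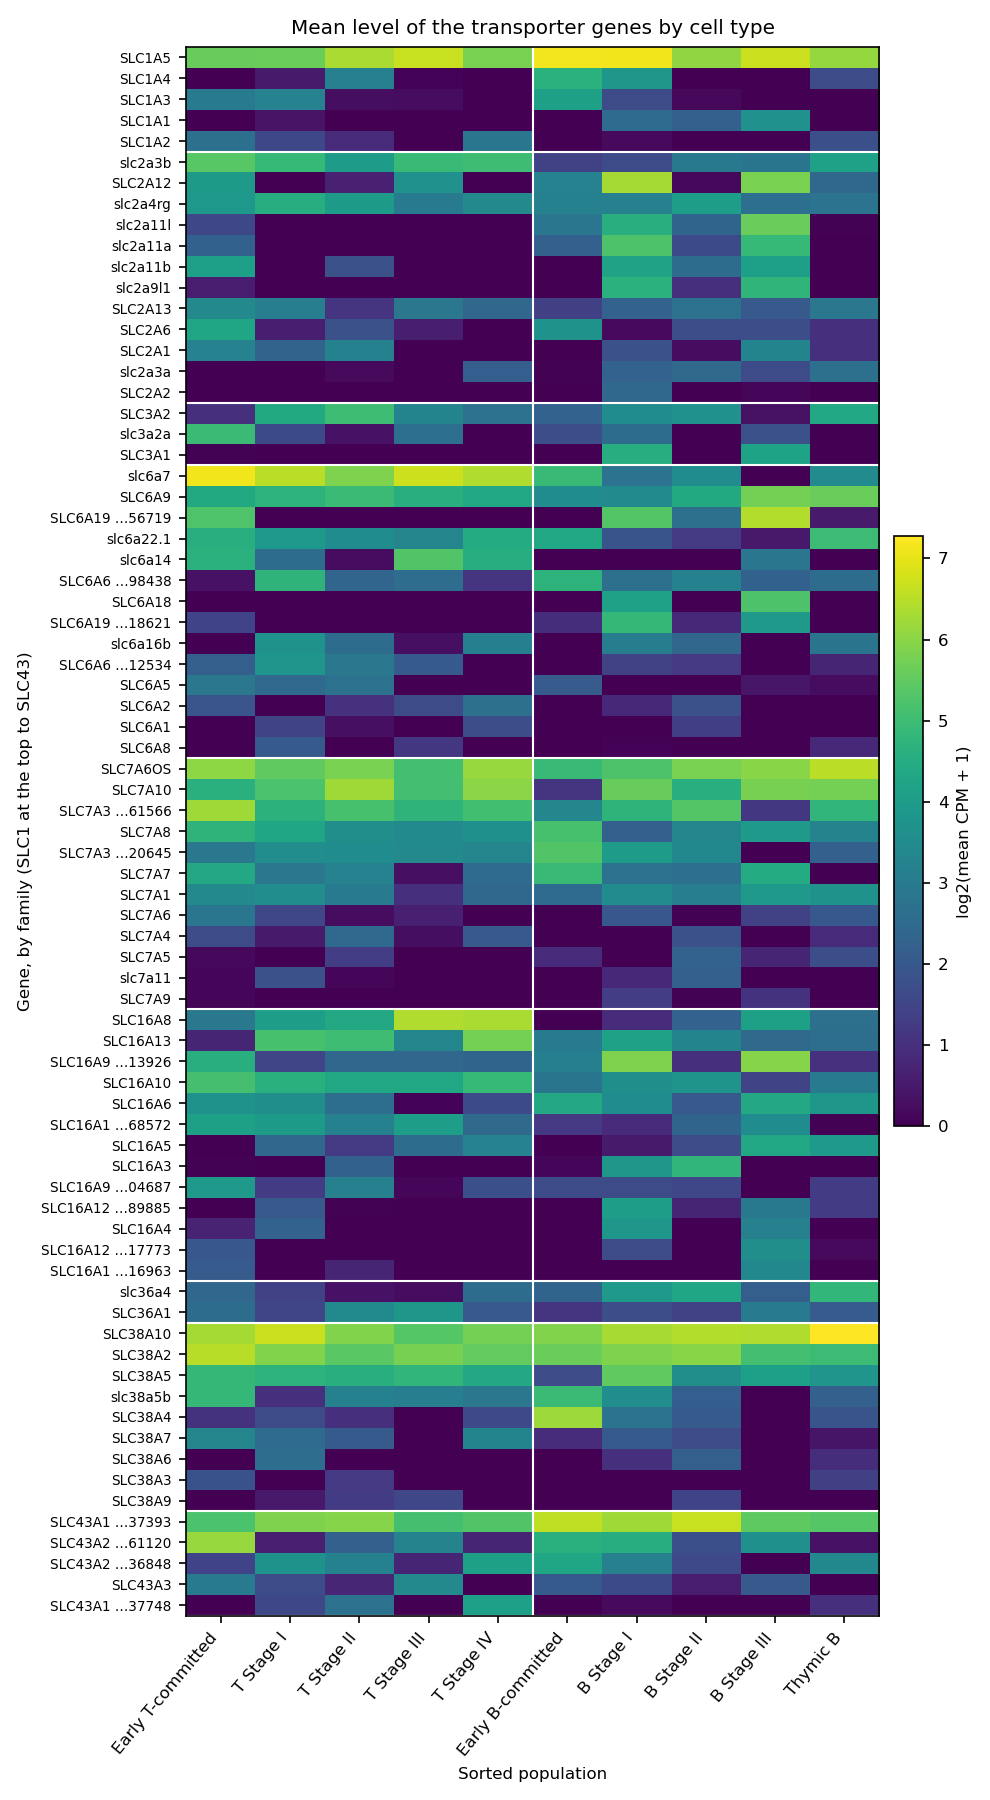
Mean level of the 75 genes (rows, grouped by family from SLC1 at the top to SLC43) in the 10 sorted cell types (columns, T lineage left of the white line and B lineage right of it), as log2(mean CPM + 1). SLC1A5, SLC38A10, SLC38A2 and SLC43A1 (ENSDARG00000037393) are bright in every column, slc6a7 in the T columns, and a block of SLC2 and SLC6 genes in the B Stage I and B Stage III columns.

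A small set was detected nearly everywhere. SLC1A5, the glutamine exchanger ASCT2, had over 3 counts in 52 of 53 libraries, and its mean level was 46.9 CPM in early T-committed cells, 49.2 in T Stage I, 80.5 in T Stage II, 100.4 in T Stage III, 55.1 in T Stage IV, 139 in early B-committed cells, 138 in B Stage I, 65.4 in B Stage II, 102 in B Stage III and 68.6 in thymic B cells. The B Stage I libraries alone spanned 31.9 to 324.9 CPM, and the test over all groups gave SLC1A5 an adjusted p of 0.151 in edgeR. SLC38A2 (SNAT2, small neutral amino acids) was detected in 51 libraries, with the highest mean, 89.7 ± 63.2 CPM (SD, n = 6), in early T-committed libraries, the lowest, 30.4 ± 38.6 CPM (SD, n = 11), in thymic B libraries, and an adjusted p of 0.686 in edgeR. SLC43A1 (ENSDARG00000037393; LAT3, branched-chain amino acids) was detected in 51 libraries, with means from 34.3 ± 25.8 CPM in T Stage III (SD, n = 3) to 101 ± 41.2 CPM in B Stage II libraries (SD, n = 6), and an adjusted p of 0.191 in edgeR. None of these 3 genes passed the test over all groups. Within single steps SLC1A5 libraries could still separate, with 53.2, 55.2 and 56.9 CPM in T Stage IV against 106.0, 97.2 and 97.9 CPM in T Stage III. SLC38A10, a broadly expressed SLC38 member, was detected in 52 libraries and did vary (adjusted p 0.0272 in edgeR). Its thymic B libraries separated by line: 364.4, 347.6 and 294.7 CPM in rag2-cd79b, 175.1 and 142.7 CPM in lck-cd79b, 60.3, 51.7 and 43.0 CPM in rag2-cd79a, and 57.6, 95.0 and 57.2 CPM in lck-cd79a. The cd79b lines were therefore above the cd79a lines in thymic B cells with no overlap. The same gene did not separate that way in marrow B Stage II, at 82.7, 101.1 and 36.6 CPM in rag2-cd79b and 19.1, 107.2 and 162.7 CPM in rag2-cd79a.

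Several transporters that are prominent in activated mammalian lymphocytes, and some others, were detected in at most 26 of the 53 libraries. The median was 28 libraries over all genes and 18 over the transporter genes, so detection in this range was not particular to the genes named here. Other amino acid transporter genes were detected more widely, SLC7A1 in 43 libraries, SLC38A5 in 42 and the heavy chain gene SLC3A2 in 40. SLC7A5 (LAT1) had over 3 counts in 7 of 53 libraries and its highest value was 26.1 CPM, in a thymic B library. SLC2A1, a main glucose transporter of mammalian lymphocytes, was detected in 18 libraries, and was at 0 CPM in every T Stage III, T Stage IV and early B-committed library. SLC38A9, the lysosomal arginine sensor of mTORC1, was detected in 5 libraries, and slc7a11, the cystine-glutamate exchanger, in 7. slc2a9l1, of a urate transporter family, was detected in 10 libraries, SLC7A6 in 14, SLC43A3 in 15, slc2a3a in 19, SLC38A7 in 23 and SLC36A1 in 26. A 0 in a library allows up to 3 counts, which is at most 0.411 CPM, and this covers counting error only.

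The T and B lineages differed in level for several genes. The proline transporter slc6a7 was detected in all 24 T-lineage libraries, where its lowest, median and highest values were 37.2, 84.1 and 328.9 CPM, and in 14 of 29 B-lineage libraries, where they were 0, 0 and 88.9 CPM. By stage its mean was 139 ± 95.5 CPM (SD, n = 6) in early T-committed cells, 90.5 ± 49.6 in T Stage I (SD, n = 6), 57.2 ± 21.2 in T Stage II (SD, n = 6), 104 ± 51.0 in T Stage III (SD, n = 3) and 83.2 ± 38.4 in T Stage IV (SD, n = 3). The ranges of the 5 T populations overlapped one another. The 3 B-lineage libraries above the lowest T-lineage one were the rag2-cd79a early B-committed library (88.9 CPM), a rag2-cd79b thymic B library (71.5 CPM) and a rag2-cd79a B Stage II library (44.7 CPM). The 3 early B-committed libraries had 88.9, 0 and 0 CPM, and their summed T cell markers were 163.6, 156.2 and 120.4 CPM in the same order. The part of T cells in the 88.9 CPM value was not tested.

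SLC16A8, a lactate transporter (MCT3), was highest in the later thymic T stages. It had 58.7, 65.0 and 125.6 CPM in T Stage III and 70.2, 74.5 and 97.4 CPM in T Stage IV. The lowest, median and highest values were 0, 20.3 and 41.6 CPM in T Stage II, and 0.236, 17.5 and 32.4 CPM in T Stage I. Early T-committed libraries had 0, 0 and 0 CPM in lck-cd79b and 0, 20.0 and 19.3 CPM in lck-cd79a. Neither T Stage III nor T Stage IV overlapped the earlier T populations, and no early B-committed library held a count. The lck-cd79a thymic B libraries, of the same line as T Stages III and IV, had 5.43, 25.7 and 28.6 CPM, while the other 8 thymic B libraries had 0 CPM, so line moved with this gene in B cells too. The glucose transporter slc2a3b was detected in 22 of 24 T-lineage and 13 of 29 B-lineage libraries, with medians of 26.6 and 0 CPM and highest values of 108 and 63.0 CPM. slc36a4, a proton-coupled amino acid transporter, ran the other way, in 8 of 24 T-lineage and 25 of 29 B-lineage libraries, and its thymic B libraries reached 85.5, 62.9 and 35.9 CPM in rag2-cd79a. No contrast of the 2 lineages was fitted.

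**Figure D2:**
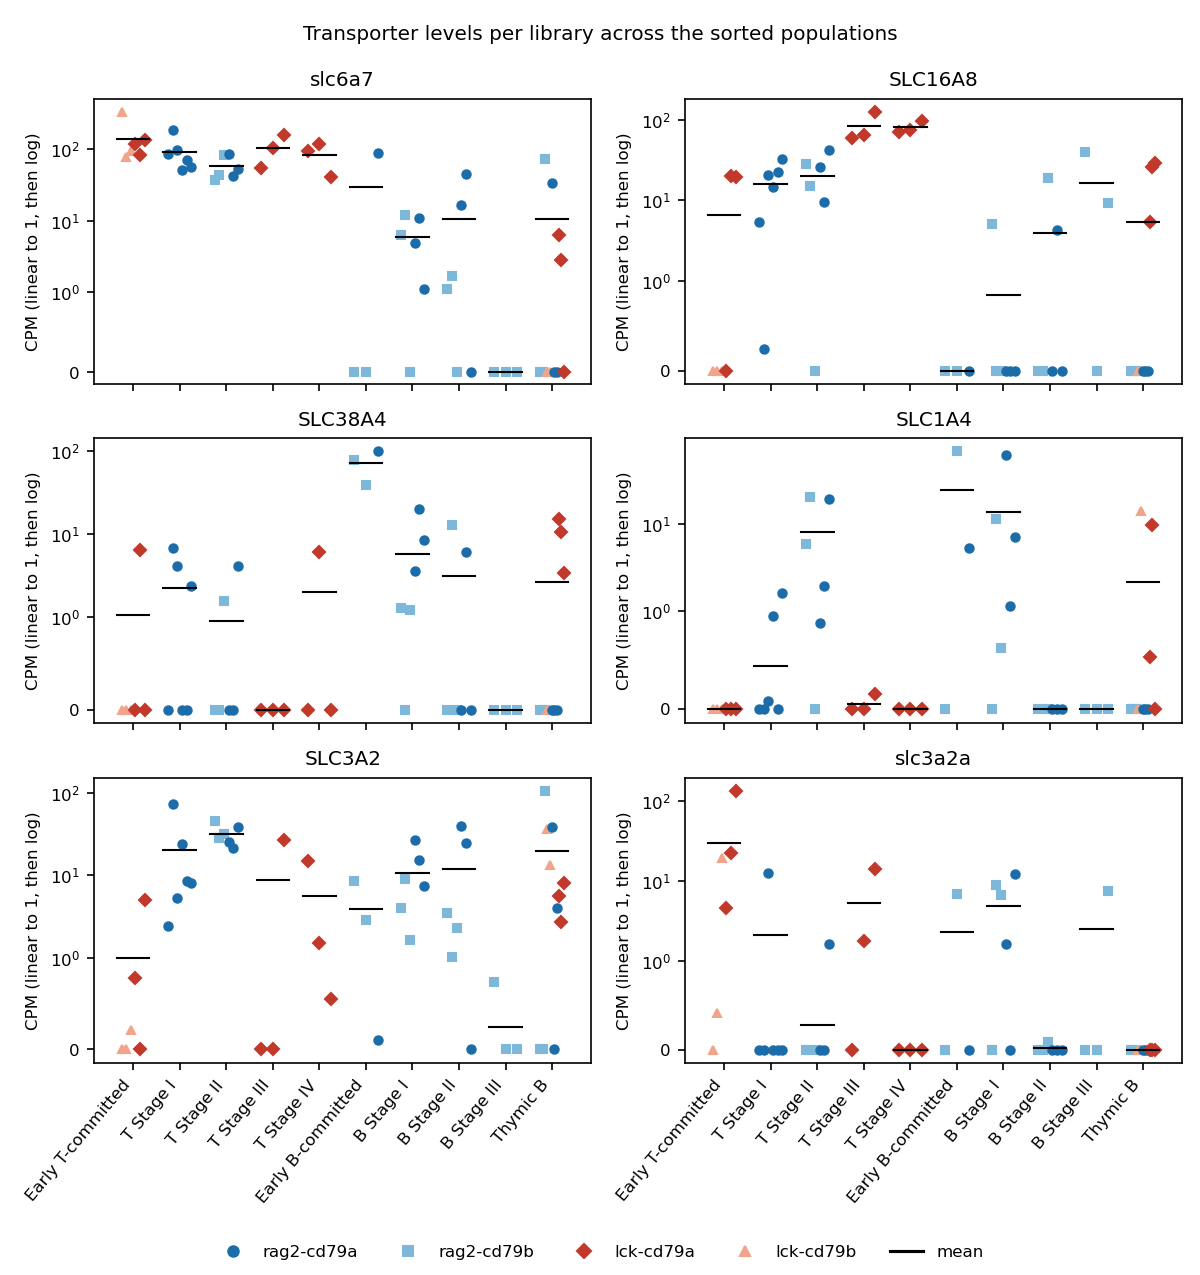
CPM of 6 transporter genes in every library (points, coloured by line) across the 10 cell types, with black bars for the mean; the axis is linear to 1 CPM and logarithmic above. slc6a7 stays above 37.2 CPM in all T-lineage libraries, SLC16A8 is highest in T Stages III and IV, and SLC38A4 is highest in the 3 early B-committed libraries.

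SLC38A4 (SNAT4, a sodium-coupled neutral amino acid transporter) was highest in early B-committed cells, the earliest marrow B population. Its early B-committed libraries had 77.9 and 39.5 CPM in rag2-cd79b and 100.1 CPM in rag2-cd79a. Outside early B-committed cells the highest value in any library was 20.4 CPM, in rag2-cd79a B Stage I, so there was no overlap. The same 3 libraries also held 29.4 to 1537 CPM of macrophage markers (5 of 5 detected), 2012 to 10182 CPM of erythroid markers (8 of 8) and 103.4 to 1606 CPM of neutrophil markers (3 of 3). Early T-committed libraries reached 1804, 18886 and 1435 CPM of the same lists, and SLC38A4 was at most 6.46 CPM there. The part of those cells in the SLC38A4 level was not tested.

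The proliferation list separated the marrow B stages. Its 20 genes summed to 1879 to 3987 CPM in early B-committed cells, 2533 to 4430 CPM in B Stage I, 180.0 to 1004 CPM in B Stage II and 209.8 to 447.0 CPM in B Stage III. In the thymus it summed to 1333 to 5046 CPM in T Stage I, 3140 to 4761 in T Stage II, 1734 to 2237 in T Stage III and 1089 to 2453 in T Stage IV, so T stages differed less. Early B-committed and B Stage I cells were taken as the cycling precursors of B Stages II and III. In rag2-cd79a the later side was B Stage II alone. Of the 20 proliferation genes 14 were lower in the later stages (PCNA, the DNA polymerase clamp, by -2.73 in log2 units, SE 0.35, edgeR adjusted p 1.43e-10).

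Across that whole step none of the 75 transporters passed the edgeR threshold, against 3.29% of all genes. In edgeR 8 of the 75 and 1785 of 14423 genes had an unadjusted p under 0.05. The median log2 ratio of mean CPM, with 3 counts as the floor, was -0.07 for the 75 genes and -0.08 for all genes. For 39 of the 75 the statistic was about 0 because a group held no counts at all, so edgeR could not call them, and limma on log2 CPM was run beside it. limma called 3 lower in the later stages, against 2.85% of all genes in either direction. SLC38A4 had a log2 difference of -4.85 (SE 1.16, limma adjusted p 0.00787). SLC1A4 (ASCT1, alanine and serine exchange) had 0 CPM in all 9 later libraries. In precursors it had 0 and 66.8 CPM in rag2-cd79b and 5.28 CPM in rag2-cd79a early B-committed cells, and 0, 11.2 and 0.621 CPM in rag2-cd79b and 60.8, 1.16 and 7.05 CPM in rag2-cd79a B Stage I. The 2 ranges met at 0, and the limma log2 difference was -4.38 (SE 1.12, adjusted p 0.0149); in edgeR the adjusted p was 0.0732. SLC1A3, a glutamate transporter, had a limma difference of -4.00 (SE 1.03, adjusted p 0.0161). Without the 9 marrow libraries richest in kidney tubule markers, described below, limma called none of the 75, against 1.74% of all genes. DESeq2 called 16 of 68 members with an adjusted p, against 22.5% of all genes.

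The best replicated step, B Stage II against B Stage I in both rag2 lines, moved 3 of the 75 transporters, all lower in B Stage II, against 1.12% of all genes in either direction and 0.964% lower. SLC2A12 (GLUT12, a glucose transporter) had 0, 0.380 and 0 CPM in rag2-cd79a and 0, 0 and 0.343 CPM in rag2-cd79b B Stage II. In B Stage I it had 14.2, 180.2 and 144.2 CPM in rag2-cd79a and 26.5, 53.0 and 43.5 CPM in rag2-cd79b. The stages did not overlap in either line, and the difference of -8.86 on the log2 scale (SE 1.71) had an edgeR adjusted p of 3.64e-04. The B Stage II libraries of rag2-cd79a held 5 counts of it in all and those of rag2-cd79b 4 counts.

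SLC16A9 (ENSDARG00000013926; MCT9, carnitine transport) had 3.38, 2.36 and 0 CPM in rag2-cd79a and 0 CPM in all 3 rag2-cd79b B Stage II libraries. B Stage I had 15.3, 125.9 and 143.2 CPM in rag2-cd79a and 19.1, 14.1 and 23.5 CPM in rag2-cd79b. There was no overlap, and the log2 change was -8.14 (SE 1.90, edgeR adjusted p 0.00575). The edgeR mean of rag2-cd79b B Stage II has no lower bound, since that group held no counts, so the size of this change is not fixed by the data. SLC6A19 (ENSDARG00000018621), a neutral amino acid transporter of kidney tubule in mammals, had 0, 0 and 0 CPM in rag2-cd79a and 2.61, 0 and 2.15 CPM in rag2-cd79b B Stage II. In B Stage I it had 0, 26.3 and 67.6 CPM in rag2-cd79a and 15.8, 46.3 and 11.4 CPM in rag2-cd79b. The stages met at 0 in rag2-cd79a, and the log2 change was -7.53 (SE 2.02, edgeR adjusted p 0.0256). The same limit holds here for rag2-cd79a B Stage II, which held no counts of SLC6A19.

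The SLC6A19 call was lost (edgeR adjusted p up to 0.131) when any of 8 of the 12 libraries was left out: B Stage I replicates 11 and 41, or B Stage II replicates 13, 14, 15, 42, 43 and 44. SLC2A12 and SLC16A9 kept theirs without each library in turn. Both lost it under the legacy edgeR fit (SLC2A12 -8.78, adjusted p 0.128; SLC16A9 -8.10, adjusted p 0.208), and DESeq2 did not call SLC2A12 (-8.88, adjusted p 0.0844) or SLC6A19 (-14.5, adjusted p 0.140). DESeq2 called 13 of the 71 members with an adjusted p, against 9.53% of all genes. Each rag2 line alone gave fewer calls, 1 of the 75 in rag2-cd79a and 0 in rag2-cd79b, and no transporter passed edgeR's test of the difference between the lines. Shares of all genes in the single lines are not given here. limma called 9 lower and 0 higher, against 1.96% of all genes: SLC2A12 (log2 difference -7.69, adjusted p 7.09e-04), SLC16A9 (-6.24, adjusted p 0.00972), SLC6A19 (ENSDARG00000018621; -4.74, adjusted p 0.0152), the second SLC6A19 gene, ENSDARG00000056719 (-5.74), SLC2A2, SLC16A4, slc2a11a, SLC3A1 and SLC6A18. The median log2 ratio of mean CPM was -0.37 for the 75 genes and -0.02 for all genes.

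Kidney tubule markers moved with this step. Their 18 genes summed to a lowest, median and highest of 81.9, 205.1 and 233.0 CPM in B Stage II and 282.1, 661.8 and 2165 CPM in B Stage I, with no overlap, and 17 of 18 were detected in each stage. Of the 18, 6 were called lower in B Stage II by edgeR, among them SLC34A1, the tubular phosphate transporter (-8.21, SE 1.64, adjusted p 5.25e-04), and CDH17, an adhesion protein of fish tubules (-4.09, SE 1.00, adjusted p 0.0102). Leaving out the 9 marrow libraries over 500 CPM of this list, of which 4 were B Stage I, left none of the transporters called by edgeR, against 0.439% of all genes, and 1, SLC16A4, called by limma, against 0.569%. This leaves 1 B Stage I library in each line, which is assumed to vary like the other groups. Leaving out these libraries was added after the data were seen. The edgeR log2 changes without those libraries were -7.01 for SLC2A12, -6.80 for SLC16A9 and -1.43 for SLC6A19. SLC6A19 was at 0 CPM in the remaining rag2-cd79a B Stage I library and in all 3 B Stage II libraries of that line. That line could therefore show no change in SLC6A19, and the -1.43 does not tell whether its change depends on the kidney-rich libraries. The 12 of 20 proliferation genes called lower in B Stage II moved with it as well. The part of either in the 3 transporter changes was not tested. In the 3 B Stage III libraries, with proliferation sums as low as those of B Stage II and kidney sums of 233.1, 866.5 and 1912 CPM, SLC2A12 was at 0, 94.3 and 69.9 CPM and SLC16A9 at 10.2, 76.6 and 95.1 CPM.

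**Figure D3:**
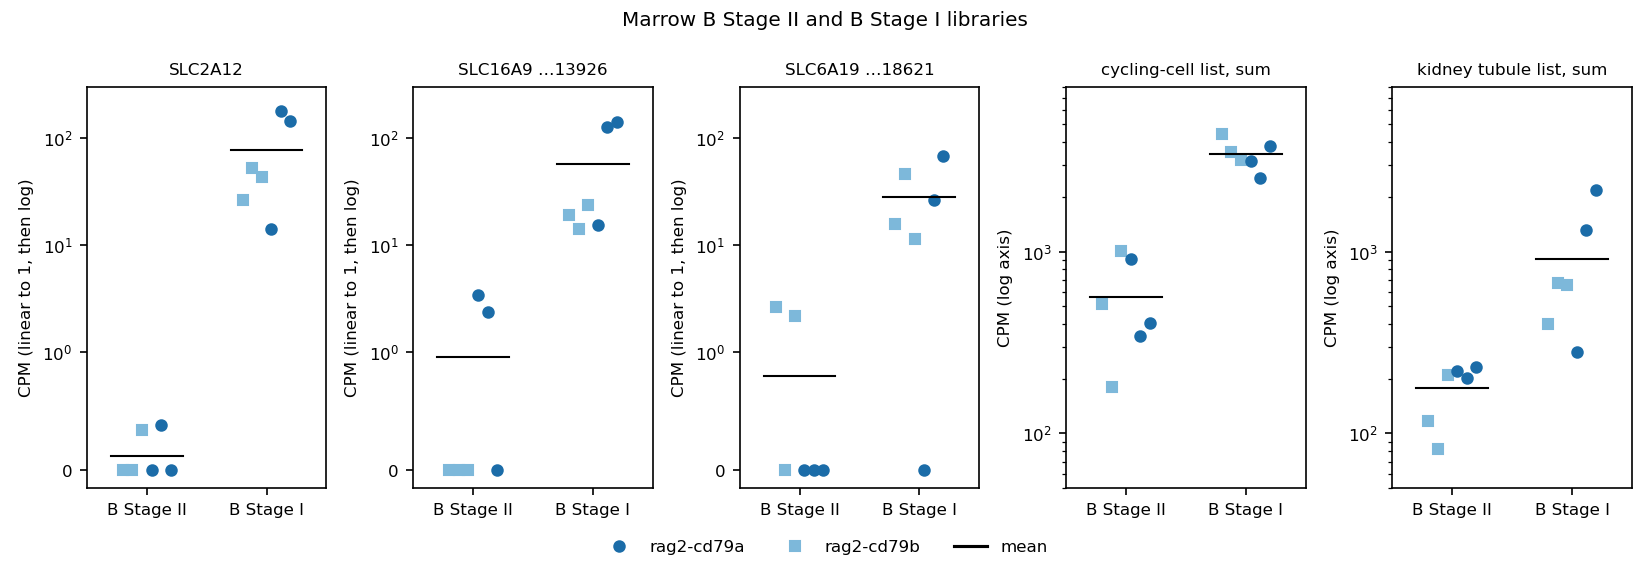
CPM of the 3 called transporters (3 left panels, linear to 1 CPM and logarithmic above), and the summed CPM of the proliferation and kidney tubule lists (2 right panels, log axis), in B Stage II (left) and B Stage I (right) libraries of the rag2 lines; bars are means. All 5 quantities are lower in B Stage II, and SLC6A19 meets at 0 CPM.

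Among the thymic T stages no transporter passed edgeR. T Stages III and IV were set against T Stages I and II with the line difference of thymic B cells subtracted, since the stages came from different lines. In edgeR 0 of the 75 were called, against 0.0347% of all genes (limma 0 of 75, against 0.132%). An unadjusted edgeR p under 0.05 was found for 2 of the 75 and 1004 of 14423 genes. Without that subtraction edgeR called 1, slc6a14, chosen for mention after its value was seen, and the share of all genes called that way is not given here. In the step to T Stage II, against T Stage I of rag2-cd79a, edgeR called 0 of the 75 and 0 of all genes (0.0%); 1 of the 75 and 707 of all genes had an unadjusted p under 0.05, and limma called 0 of the 75, against 0.0485%. For T Stage IV against T Stage III in lck-cd79a, edgeR called 0, against 0.0763% of all genes, and 6 of the 75 and 1026 of all genes had an unadjusted p under 0.05. limma called 1, against 0.139%, the second SLC43A1 gene (ENSDARG00000037748), named after its value was seen: its log2 difference was 6.40 (SE 1.42, limma adjusted p 0.0288). DESeq2 called 16 of 70 members for the later against the earlier stages, against 16.5% of all genes, 9 of 71 for T Stage II, against 6.54%, and 12 of 71 for T Stage IV, against 9.58%. The edgeR statistic was about 0 for 38, 18 and 24 of the 75 in these 3 comparisons, so those genes could not be called. With few libraries a stage, and zeros in many, these comparisons do not show that the levels were equal.

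Marrow and thymus libraries differed in 4 of the 75 transporters by edgeR, 2 higher and 2 lower in marrow, against 2.71% of all genes (1.28% higher and 1.44% lower). The comparison set the mean of a line's marrow groups against its thymus groups and averaged over the 4 lines, and tissue and cell type cannot be told apart in it. SLC43A2 (ENSDARG00000061120, LAT4, branched-chain amino acids and methionine) had the smaller adjusted p of the 2 genes that edgeR called higher in marrow. Its early T-committed libraries had 24.5, 142.5 and 86.0 CPM in lck-cd79b and 43.8, 19.0 and 107.4 CPM in lck-cd79a. Early B-committed libraries had 30.1, 22.0 and 18.7 CPM, and B Stage I libraries 31.4, 18.2 and 27.6 CPM in rag2-cd79b and 0, 23.6 and 31.0 CPM in rag2-cd79a. B Stage II libraries had at most 11.4 CPM, and B Stage III libraries 0, 0 and 34.7 CPM.

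In the thymus 7 of 29 libraries held over 3 counts of this SLC43A2 gene and the highest had 25.2 CPM, in T Stage III. The marrow excess in mean CPM was 16.6-fold in lck-cd79a, at least 249-fold in lck-cd79b against a floor of 3 counts per library, 9.32-fold in rag2-cd79a and 9.50-fold in rag2-cd79b, and the ranges overlapped in all lines but lck-cd79b. The fitted log2 difference was 7.23 (SE 1.86, edgeR adjusted p 0.00846), and limma gave 5.45 (SE 0.88, adjusted p 6.24e-06). Several thymus groups held no count of this gene, so the edgeR value averages group means that have no lower bound. The edgeR call was lost in the rag2 lines alone (5.82, adjusted p 0.1405). Among single libraries, the edgeR call was lost without B Stage II replicate 14 (7.07), B Stage III replicate 18 (6.62) or B Stage II replicate 44 (6.91, adjusted p 0.780). Without replicate 18 no B Stage III library held a count of it, so edgeR could not call it in that fit. Without replicate 14 the rag2-cd79b B Stage II libraries held 0 and 2 counts of it. Without the 9 kidney-rich libraries its log2 difference was 5.04 in edgeR and 4.37 in limma. B Stage III was then replicate 16 alone, which held no count of it, so edgeR could not call it in that fit.

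SLC7A7, the y+LAT1 light chain for cationic amino acids, was the other gene called higher in marrow. It had 16.4, 0 and 0 CPM in lck-cd79b and 53.3, 0.0718 and 49.9 CPM in lck-cd79a early T-committed libraries, and 0, 66.5 and 19.9 CPM in early B-committed libraries. In thymus its highest value was 31.9 CPM, in T Stage I, and it had over 3 counts in 9 of 29 thymus libraries, against 14 of 24 marrow libraries. The marrow excess in mean CPM was 20.2-fold in lck-cd79a, 2.07-fold in rag2-cd79a and 2.87-fold in rag2-cd79b. In lck-cd79b it was at least 16.1-fold against a floor of 3 counts per library, and the groups overlapped in every line. The fitted log2 difference was 6.34 (SE 1.80, edgeR adjusted p 0.0232), and limma gave 2.64 with an adjusted p of 0.0861. The edgeR value averages group means that have no lower bound where a group held no counts. Neither the rag2 lines alone (4.80, edgeR adjusted p 0.2015) nor the lck lines alone (7.88, edgeR adjusted p 0.1206) gave the call. The edgeR call was lost without any of 6 libraries (replicates 8, 15, 18, 19, 20 and 21, log2 4.20 to 6.36). Without replicate 8, 15, 18 or 21 a marrow group held no counts of SLC7A7, so edgeR could not call it in those fits. Macrophage markers, of which 5 of 5 were detected in early T-committed and early B-committed cells, summed to a lowest, median and highest of 0, 42.5 and 1804 CPM in marrow libraries and 0, 1.89 and 149.2 CPM in thymus libraries. Their part in the SLC43A2 and SLC7A7 differences was not tested.

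The heavy chain gene SLC3A2 and the light chain gene SLC7A10 (Asc-1, small neutral amino acids) were lower in marrow. SLC3A2 had a lowest, median and highest of 0, 0.105 and 5.00 CPM in early T-committed libraries and had 0.729, 0 and 0 CPM in B Stage III. In the thymus all 6 T Stage II libraries held it, at 21.1, 29.8 and 44.7 CPM, as did all 6 T Stage I libraries, at 2.43, 8.26 and 73.0 CPM. Other populations ran against this: B Stage I of rag2-cd79a had 26.9, 15.1 and 7.44 CPM and B Stage II of that line 39.9, 24.5 and 0 CPM, while T Stage III had 0, 0 and 26.4 CPM and T Stage IV 14.8, 1.51 and 0.553 CPM. Thymic B libraries spanned 0 to 105.7 CPM. Marrow was lower in mean CPM in each line, by 3.45-fold in lck-cd79a, 1.27-fold in rag2-cd79a and 11.5-fold in rag2-cd79b, with overlap in these lines. In lck-cd79b the marrow libraries held 0, 0 and 2 counts, against 36.7 and 13.4 CPM in the thymus libraries, with no overlap. The log2 difference was -4.08 (SE 0.99, edgeR adjusted p 0.00384) and limma gave -2.86 (adjusted p 0.0320). The edgeR call was lost in the lck lines alone (-5.05, adjusted p 0.09705). Among single libraries, the edgeR call was lost without thymic B replicate 6 (-2.63), thymic B replicate 19 (-3.88) or T Stage III replicate 47 (-3.27). Without replicate 6 or 47 a thymus group held no counts of SLC3A2, so edgeR could not call it in those fits.

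The second heavy chain gene, slc3a2a, ran the other way. It reached 135.6 CPM in an early T-committed library and was at 0 CPM in all 11 thymic B libraries, and limma called it higher in marrow (2.81, SE 0.75, adjusted p 0.0113), while edgeR returned a statistic of about 0 for it. How reads that match the 3' ends of both genes were counted was not given in the sources used here. SLC7A10 had means of 23.8 CPM in early T-committed cells, 1.14 in early B-committed cells, 46.9 in B Stage I, 22.9 in B Stage II and 53.6 in B Stage III, against 35.8 in T Stage I, 73.8 in T Stage II, 33.2 in T Stage III, 62.8 in T Stage IV and 52.8 in thymic B cells. Marrow was lower in mean CPM of SLC7A10 by 1.87-fold in lck-cd79a, 4.59-fold in lck-cd79b, 1.32-fold in rag2-cd79a and 1.68-fold in rag2-cd79b. The ranges overlapped in all lines but lck-cd79b. Its log2 difference was -1.93 (SE 0.53, edgeR adjusted p 0.0184), and limma gave -2.62 (adjusted p 0.00384). The call was lost without thymic B replicate 20, early B-committed replicate 36 or early T-committed replicate 56 (adjusted p 0.0563 to 0.0683), in the rag2 lines alone (-2.23, adjusted p 0.108), in the lck lines alone (-1.64, adjusted p 0.175) and under the legacy edgeR fit (-1.96, adjusted p 0.0596).

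For 59 of the 75 genes, as for 58.4% of all genes, edgeR's marrow statistic was about 0, so the comparison could call only 16 of them. limma called 12, 10 higher and 2 lower in marrow, against 6.04% of all genes. The 10 were SLC43A2, both SLC6A19 genes, SLC16A9, SLC2A12, slc2a11a, slc2a11l, slc3a2a and, named after their values were seen, SLC2A6 and slc2a11b. The median log2 ratio of mean CPM was 0.42 for the 75 genes and 0.01 for all genes. Without the 9 kidney-rich marrow libraries, edgeR called 2 genes, both lower in marrow (SLC7A10 at -4.35, adjusted p 0.0336, and SLC38A10 at -3.64, adjusted p 0.0342), against 1.88% of all genes. SLC3A2 was at -5.23 and SLC7A7 at 5.63 in that fit. B Stage III was then 1 library, which held no count of SLC7A7, so edgeR could not call that gene. limma without them called 8, 5 higher (SLC43A2, both SLC6A19 genes, SLC16A9 and slc2a11a) and 3 lower (SLC7A10, SLC38A10 and SLC1A5), against 5.03% of all genes. DESeq2 on all libraries called 30 of 71 members with an adjusted p, against 30.8% of all genes.

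**Figure D4:**
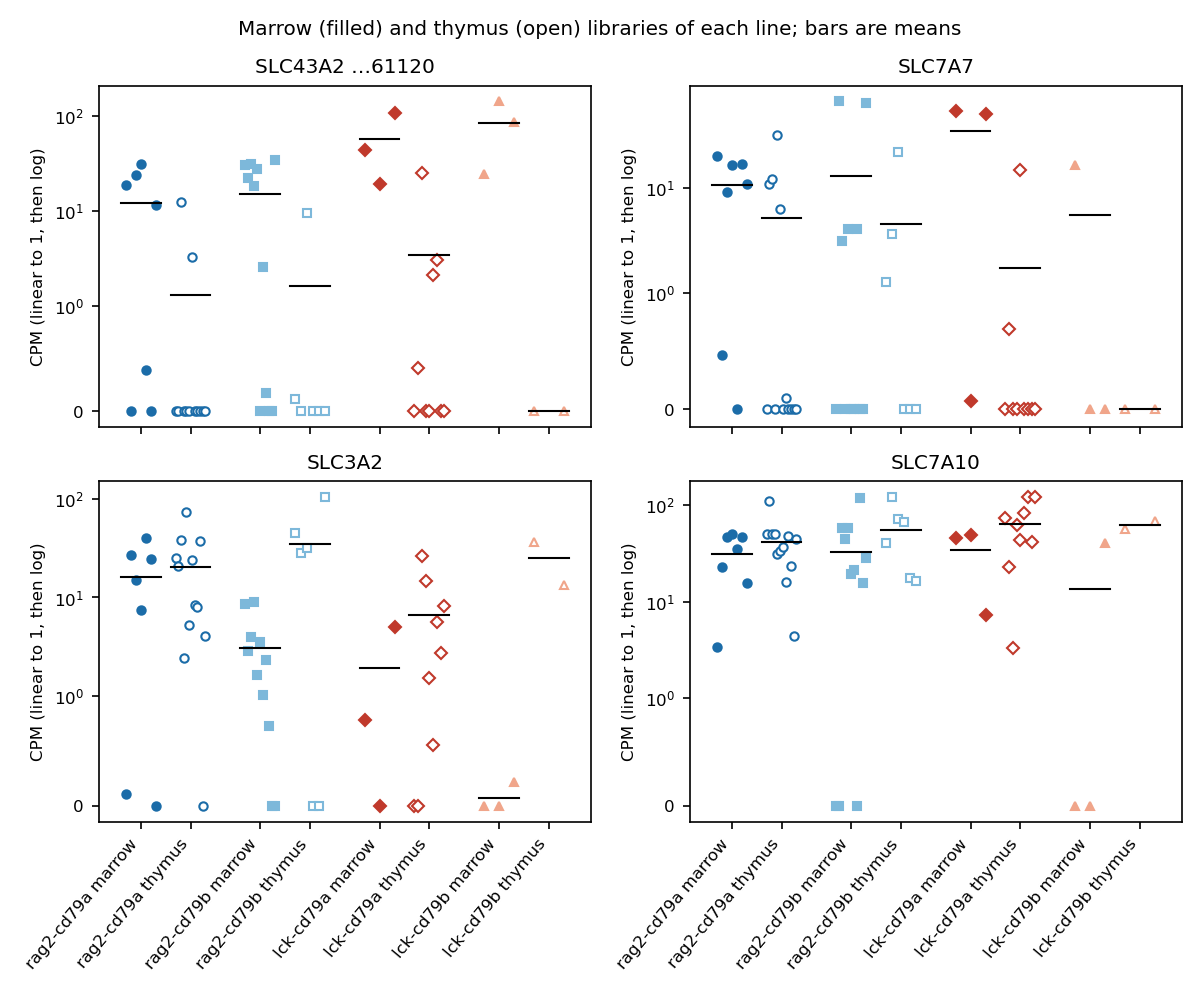
CPM of the 4 transporters called between marrow and thymus, by line; filled points are marrow libraries and open points thymus libraries, bars are means, and the axis is linear to 1 CPM and logarithmic above. Marrow means are above thymus means in each line for SLC43A2 (ENSDARG00000061120) and SLC7A7 and below them for SLC3A2 and SLC7A10, with overlapping points in most lines.

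Within the B lineage, marrow B Stage II was set against thymic B cells of the same rag2 lines. Only slc6a22.1, an SLC6 gene, passed edgeR, lower in marrow, against 1.32% of all genes (0.367% lower). It had 8.26, 0 and 0 CPM in rag2-cd79a and 0 CPM in all 3 rag2-cd79b B Stage II libraries, against 43.1, 2.33 and 43.5 CPM in rag2-cd79a and 128.5, 34.2 and 0 CPM in rag2-cd79b thymic B libraries. The groups overlapped in both lines, and neither line alone gave the call. The log2 difference was -7.75 (SE 1.94, edgeR adjusted p 0.0171), and limma gave -5.22 (adjusted p 0.0358). The rag2-cd79b B Stage II group held no counts, so its edgeR mean has no lower bound. The edgeR call stood on few libraries. That call was lost without thymic B replicate 4 (edgeR adjusted p 0.1104) or B Stage II replicate 13 (edgeR adjusted p 0.0506). limma also called SLC16A3 (MCT4, lactate export), higher in marrow (3.71, adjusted p 0.0351, against 4.22% of all genes). DESeq2 called 23 of 71 members, against 26.7% of all genes. SLC16A3 was at 0 CPM in all 11 thymic B libraries, and at 8.25, 16.3 and 135.0 CPM in rag2-cd79b and 0 CPM in all 3 rag2-cd79a B Stage II libraries.

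In the T lineage, early T-committed marrow cells against T Stage III of lck-cd79a gave no called transporter in edgeR, against 1.04% of all genes, and none in limma (1.46% of all genes). In edgeR 14 of the 75 and 1921 of 14423 genes had an unadjusted p under 0.05. The smallest edgeR adjusted p was 0.115, for SLC7A7, at 53.3, 0.0718 and 49.9 CPM in early T-committed cells and 0, 0.686 and 0 CPM in T Stage III. The marrow and thymus differences were not shown to differ between the B and T lineages: 0 of the 75 passed the test of that difference in edgeR, against 0.673% of all genes, and 0 in limma (0.783%). An unadjusted edgeR p under 0.05 was found for 3 of the 75 and 1540 of 14423 genes. DESeq2 called 11 of 71 members for early T-committed cells against T Stage III, against 13.8% of all genes, and 14 of 70 for the lineage difference, against 21.9%. The edgeR statistic was about 0 for 34 of the 75 in the B-lineage comparison, 15 in the T-lineage one and 45 for the lineage difference.

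The 7 transporters detected in marrow libraries alone were mostly ones known from the kidney tubule in mammals. Of the 75, these 7 had over 3 counts in at least 1 marrow library and in no thymus library, against 2.81% of all genes, and 0 of the 75 were detected in thymus libraries alone, against 2.36% of all genes. They were the cystine transporter gene SLC7A9 and its heavy chain SLC3A1, the neutral amino acid transporters SLC6A18 and SLC6A19 (ENSDARG00000018621), SLC2A2 (GLUT2, of liver, gut and kidney tubule), slc2a11a and slc2a9l1, whose mammalian relative SLC2A9 carries urate. Each had 0 counts in all 29 thymus libraries.

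slc2a11a was detected in 12 marrow libraries. It had 42.5, 99.7 and 69.1 CPM in rag2-cd79a and 1.30, 3.25 and 3.57 CPM in rag2-cd79b B Stage I, 58.4, 17.0 and 9.47 CPM in B Stage III, and single values of 12.5 CPM in B Stage II, 11.1 CPM in early B-committed cells and 22.8 CPM in early T-committed cells. SLC3A1 had 8.05, 74.4 and 50.1 CPM in rag2-cd79a B Stage I, 0 CPM in all 3 rag2-cd79b B Stage I libraries, and 14.1, 31.2 and 7.81 CPM in B Stage III. SLC6A18 was confined to 5 libraries, with 1.41, 64.5 and 34.8 CPM in rag2-cd79a B Stage I and 0, 81.2 and 29.7 CPM in B Stage III. These 3 genes therefore peaked in the same 2 populations, B Stage I of rag2-cd79a and B Stage III of rag2-cd79b.

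slc2a9l1 was detected in 10 libraries, with 6.02, 86.6 and 48.6 CPM in rag2-cd79a B Stage I and 0, 1.22 and 77.1 CPM in B Stage III. SLC2A2 reached 10.9 CPM and SLC7A9 4.27 CPM, each detected in 5 libraries. SLC3A1 was the only one of the 75 for which limma called a difference between the rag2 lines in the B Stage II step (7.30 on the log2 scale, SE 1.50, adjusted p 0.0216, against 0.0347% of all genes). In rag2-cd79a B Stage II it had 0, 0.0760 and 0 CPM, and in rag2-cd79b it was at 0 CPM in both stages. edgeR called none of the 75 for that difference, against 0.0139% of all genes, and DESeq2 called 10 of 71, against 6.98%. In edgeR 5 of the 75 and 411 of 14423 genes had an unadjusted p under 0.05.

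The summed level of the 7 genes was highest in B Stage I and B Stage III, where the kidney tubule list was highest too. No measure of agreement between the 2 sums was computed, and the following are values of single libraries. B Stage III replicate 16 had 72.6 CPM of the 7 genes at 233.1 CPM of the list. B Stage II replicate 44 had 0 CPM at 233.0 CPM. B Stage I replicate 39 had 57.9 CPM at 282.1 CPM, and replicate 12 had 25.8 CPM at 651.1 CPM. B Stage I replicates 40 and 41 had the highest list sums of that stage, 1309 and 2165 CPM, and 364 and 281 CPM of the 7 genes. B Stage III replicates 17 and 18 had list sums of 866.5 and 1912 CPM, and 131 and 171 CPM of the 7 genes. The 7-gene sum ran from 19.7 to 364 CPM with a median of 54.5 in B Stage I and was 72.6, 131 and 171 CPM in B Stage III. It ran from 0 to 16.1 CPM with a median of 1.58 in B Stage II and from 0 to 27.0 CPM with a median of 2.11 in early T-committed cells, was 0, 2.77 and 11.1 CPM in early B-committed cells, and was 0 in every thymus library. The kidney tubule list summed to 81.9 to 2165 CPM in marrow libraries with a median of 373.2, and to 11.9 to 166.5 CPM in thymus libraries with a median of 60.0. Of the 18 list genes, 8 were detected in at least 1 library of T Stage I, 8 of T Stage II, 3 of T Stage III, 2 of T Stage IV and 9 of thymic B cells. CDH17 and SLC13A3 of that list were at 0 CPM in every thymic cell type, and much of the thymus sum came from 1 of the 2 SLC20A1 genes (ENSDARG00000010641), which was present in all cell types.

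Of the 24 marrow libraries, 9 exceeded 500 CPM of the list: 4 of B Stage I, 2 of B Stage III and 3 early T-committed. The 7-gene sum in these 9 had a lowest, median and highest of 0, 51.1 and 364 CPM, against 0, 3.99 and 72.6 CPM in the other 15 marrow libraries, with overlap. The 3 early T-committed libraries among the 9 held little or none of the 7 genes. With those 9 libraries left out, 6 of the 75 were still detected in marrow alone, against 2.72% of all genes, and SLC7A9 was no longer among them. A floor of over 10 counts gave 8 of the 75 (3.24%), adding slc2a11l. The part of kidney tubule cells in these 7 levels was not tested, and since marrow and kidney tubule lie in 1 organ, tissue and cell source cannot be told apart for them.

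**Figure D5:**
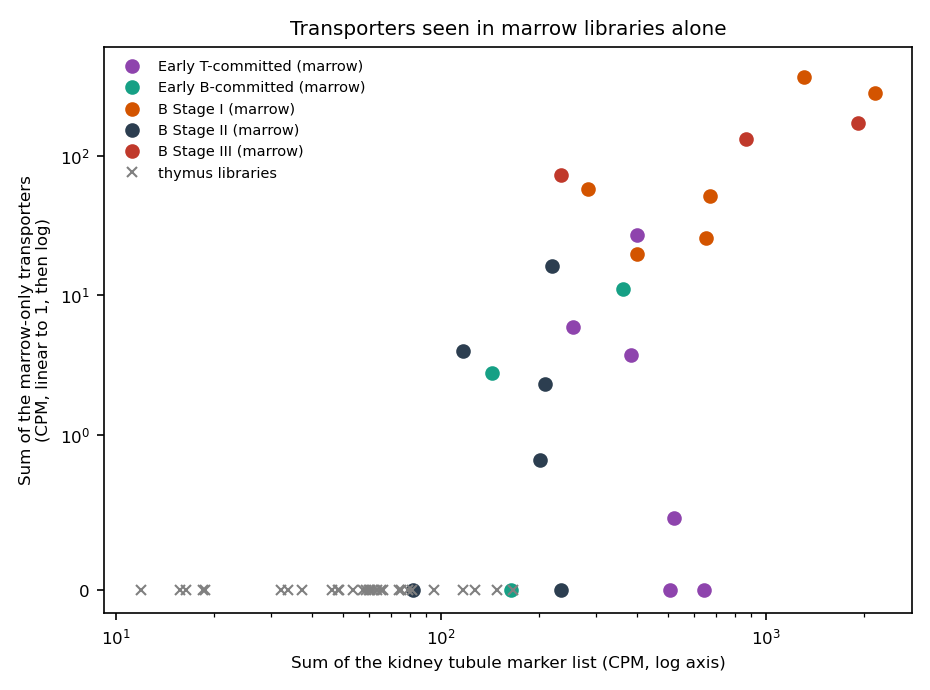
Summed CPM of the 7 transporters detected in marrow alone (y axis, linear to 1 CPM and logarithmic above) against the summed CPM of the kidney tubule marker list (x axis, log) in all 53 libraries. B Stage I and B Stage III libraries lie highest on the y axis, 3 early T-committed libraries lie near 0 on it with more than 500 CPM on the x axis, and all thymus libraries (crosses) are at 0.

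Other nutrient genes were taken from lists of pathway members chosen with earlier results of these data known. Of 24 glycolysis genes, 2 were higher in the later marrow B stages than in their precursors: LDHA, lactate dehydrogenase A (log2 change 5.50, SE 0.87, edgeR adjusted p 5.42e-07), and ENO3, an enolase (1.201, SE 0.35, adjusted p 0.0264), in a comparison that called 3.29% of all genes. GAPDH was higher in marrow than in thymus (3.02, SE 0.88, edgeR adjusted p 0.0301), and no glycolysis gene was called in the other stage or tissue comparisons. None of 22 amino acid response and synthesis genes was called in any of the 10 contrasts. By the edgeR test over the 19 groups 9 of these 22 varied, as did 8 of the 24 glycolysis genes, against 36.5% of all genes. Of 22 genes listed for mTORC1 and amino acid sensing 9 varied among the 19 groups. This list also took in both MYC genes and BSG, which are not parts of mTORC1. In the 10 contrasts 1 gene of the list was called, MYC (ENSDARG00000007241), a transcription factor that induces nutrient transporters in mammals. It was higher in later marrow B stages (2.83, SE 0.67, edgeR adjusted p 0.00288) and in B Stage II against B Stage I (3.27, SE 0.84, adjusted p 0.0176). The second MYC gene (ENSDARG00000045695) was not called in these contrasts.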

How the data were processed

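Fluorescent marrow and thymus populations were sorted and 3' mRNA libraries were made with the QuantSeq FWD kit, per the labels' protocols, so each transcript gives tags near its 3' end and levels do not scale with transcript length. Raw counts per gene were deposited by the authors. FastQC 0.11.8, STAR, featureCounts, DESeq2 1.38.3 and GRCz11 are named in the submitters' processing notes, and their settings are not given in the sources used here. The authors' deposited normalised table was not used. A row for a GFP reporter names no gene of the genome (at most 0.577% of a library's counts) and was left out. Symbols came from a names table that matched 13909 of 14423 genes; 119 of its identifiers meet the family rule, and 44 of those have no row in the table analysed here. Members, gene lists and comparisons were chosen with earlier results of these data known, and the marker lists hold 18 kidney tubule, 8 erythroid, 5 macrophage, 3 neutrophil, 20 proliferation, 7 T cell and 6 B cell genes found in the table.

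CPM are counts scaled to a common library total. edgeR 4.0.16 (R 4.3.3; TMM, robust quasi-likelihood fit) was fitted to all 53 libraries with a mean for each of 19 groups. Genes needed 10 counts in 3 libraries, which removed none. Each comparison is a contrast of group means, formed within lines where possible and averaged, with p-values adjusted by Benjamini-Hochberg over all genes and a threshold of 0.05. The SE beside an edgeR log2 change is the size of that change divided by the square root of its F statistic. It is not a fitted standard error, and it does not measure uncertainty where a group held no counts. A contrast gives a statistic of about 0 when a group held no counts and its unbounded mean can absorb the contrast, so limma 3.58.1 (log2 CPM, prior count 2, trend and robust) was added after the data were seen. DESeq2 1.42.0, median-ratio size factors, other filters, the legacy fit, single lines, fewer groups and leaving out each library were alternatives. Fits without the marrow libraries over 500 CPM of the kidney tubule list were also added after the data were seen. Scripts were tested on simulated data. Named genes are members called in a comparison (up to 15 a direction), a fixed set of nutrient transporters, the highest member of each family and the marrow-only members; others are said to be named after their values were seen. Intervals below a count of 0 (3 counts) cover counting error only.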

Additional observations from a re-analysis of the deposited data

Results flagged for a closer look

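In the 6-library cell types, a single library stood far from the other 5 for 11 of the 47 values examined, by the gap to its nearest neighbour relative to the whole range. Where the other 5 are at 0, the gap equals the whole range however low the remaining library is. The usual rate of about 1 in 20 groups flagged by chance does not hold for such values. No expected number was therefore set against the 11 flags, and whether they are an excess was not tested. The 6 libraries come from 2 lines or sorted populations in each case. SLC3A2 was highest in T Stage I replicate 28 (73.0 CPM, next 24.0 CPM) and in early T-committed replicate 56 (5.00 CPM, next 0.781 CPM). SLC7A7 was highest in the same T Stage I replicate 28 (31.9 CPM, next 6.28 CPM), so both genes of the heavy and light chain pair were flagged in 1 library. T Stage I replicate 30 held the highest SLC16A9 (ENSDARG00000013926) level (9.55 CPM, next 1.70 CPM) and the highest SLC43A2 (ENSDARG00000061120) level (3.29 CPM, the others at 0). SLC43A2 also stood out in B Stage II replicate 44 (11.4 CPM, next 2.57 CPM). B Stage II replicate 42 had the highest slc6a22.1 level (8.26 CPM, the others at 0) and the highest sum of the 7 marrow-only transporters (16.1 CPM, next 3.99 CPM). Early T-committed replicate 55 had the highest such sum of its cell type (27.0 CPM, next 5.93 CPM). SLC2A12 was seen in 1 T Stage II library, replicate 1 (3.53 CPM). SLC7A10 was lowest in B Stage I replicate 39 (23.1 CPM, next 45.0 CPM).

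limma called a difference between the rag2 lines for SLC3A1 in B Stage II against B Stage I, of 7.30 on the log2 scale (SE 1.50, adjusted p 0.0216). SLC3A1 was lower in B Stage II in rag2-cd79a and at 0 CPM in all 6 rag2-cd79b libraries of those stages. Its highest rag2-cd79a B Stage I values, 74.4 and 50.1 CPM, came from replicates 40 and 41, with kidney tubule sums of 1309 and 2165 CPM. The part of kidney tubule cells in the line difference was not tested. edgeR did not call the line difference. DESeq2 called 10 of the 71 members with an adjusted p for that difference, against 6.98% of all genes.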

How the results depend on the processing

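Counts of called transporters depended on the tool. DESeq2, whose shares of all genes stand beside each comparison above, called 5 members among the 19 groups, 16 for later marrow B stages, 13 for B Stage II against B Stage I, 16, 9 and 12 for the T comparisons (later against earlier, II against I, IV against III), 30 for marrow against thymus, 23 for B Stage II against thymic B, 11 for early T-committed against T Stage III, 10 for the line difference and 14 for the lineage difference. limma called 3, 9, 1 (T Stage IV against III), 12, 2 (B Stage II against thymic B) and 1 (line difference), and, without the 9 kidney-rich libraries, 1 for B Stage II against B Stage I, 8 for marrow against thymus, 2 for B Stage II against thymic B and 1 for early T-committed against T Stage III. edgeR without those libraries called 0 for B Stage II against B Stage I and 2 for marrow against thymus. The legacy fit called 0 for B Stage II against B Stage I and 2 for B Stage II against thymic B. For B Stage II against B Stage I, rag2-cd79a alone gave 1, rag2-cd79b alone 0 and fitting its groups alone 6; for B Stage II against thymic B each rag2 line alone gave 0. Early B-committed cells as the sole precursors gave 2, and T stages without the line subtraction gave 1. The causes were not tested beyond the zero groups described above. Where no share of all genes is given for a fit, its count does not tell whether the transporters differ from other genes.

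Leaving out 1 library gave 0 to 2 calls for later marrow B stages (1 without B Stage III replicate 18, 2 without early B-committed replicate 36, the sole library of its group), 2 to 3 for B Stage II against B Stage I, 2 to 6 for marrow against thymus (6 without early T-committed replicate 22, 2 without B Stage III replicate 18 or thymic B replicate 19), 0 to 1 for B Stage II against thymic B, 0 to 1 for the lineage difference (1 without thymic B replicates 6 or 34, B Stage II replicate 42 or T Stage III replicate 46) and 0 for the rest. Over the same fits 107 to 166 of all genes were called for B Stage II against B Stage I. The ranges were 94 to 205 for B Stage II against thymic B and 38 to 156 for the lineage difference. Over 347 alternative values of the 8 called members, 291 kept direction and call, 56 kept direction and lost the call, and none changed sign. Some of the 56 came from fits in which leaving out libraries left a group with no counts of the gene. Median-ratio scaling moved the all-gene median by 0.12 for the later T stages, -0.18 for B Stage II against thymic B and -0.23 for the lineage difference. No paired analysis was possible because each sample number in the labels belongs to a single library.

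Depth limits what a 0 can show: 56.2% of the entries of the 75 genes were 0, and each allows up to 3 counts, at most 0.411 CPM, for counting error only. The number of genes with any count ran from 3803 to 11360 per library and did not follow depth alone. Thymic B replicate 4 held 3803 genes in 7756073 counts, and T Stage II replicate 1 held 11360 genes in 8783597 counts. The part of this difference in the zeros was not tested.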
